A study of Mus musculus with 2 samples.

Results

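The genes described here are 38 mouse genes of the presynaptic vesicle and release machinery, chosen by symbol from a fixed list and matched to 38 of 43346 gene rows. They were measured by total RNA-seq of 2 libraries, each from a single neural tube of a B6NCrl mouse pup at postnatal day 0, both pups from the same pregnancy. Sex was not collected, and the labels give no mutation, transgene or treatment. The 2 libraries, called pup 1 and pup 2, form 1 group with no contrast, so values are given per pup and as mean ± SD (n = 2), with no p-value. Total expected counts, the read numbers estimated per gene, were 26916916 in pup 1 and 40003518 in pup 2.

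Neurons store transmitter in small vesicles that dock at a thickened patch of the terminal membrane called the active zone. A vesicle SNARE of the VAMP family pairs there with syntaxin and SNAP-25 on the target membrane, complexin holds the assembled complex, and calcium binding to synaptotagmin triggers fusion. NSF then takes the SNAREs apart, dynamin pinches off new vesicles, and synapsins and Rab3 proteins govern the vesicle pool. Most of these proteins come in several paralogs and splice forms that differ between synapse types and stages of development.

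Splice forms of 3 SNARE or vesicle genes are shown first because the transcript shares given further on turn on them. The sequences were read from GENCODE M21 transcripts on GRCm38 and are written 5′ to 3′ on the gene's strand. Snap25 has a pair of mutually exclusive coding exons of 118 bases. The exon of transcript Snap25-202 lies at chr2:136769743-136769860 on the plus strand, and that of Snap25-201 at chr2:136770057-136770174. Capitals mark the 31 positions at which they differ, which leaves them 73.7% identical.
Snap25-202 exon 5: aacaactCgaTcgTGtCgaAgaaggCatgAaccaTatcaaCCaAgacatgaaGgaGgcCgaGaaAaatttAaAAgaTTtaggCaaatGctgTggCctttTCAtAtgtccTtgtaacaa
Snap25-201 exon 5: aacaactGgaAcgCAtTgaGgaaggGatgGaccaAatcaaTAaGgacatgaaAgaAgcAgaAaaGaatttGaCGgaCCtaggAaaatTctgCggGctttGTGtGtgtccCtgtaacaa
These are the exons of the protein forms known as SNAP-25a (Snap25-202) and SNAP-25b (Snap25-201).

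Syn1 has alternative acceptors at its last coding exon. Its coding part in Syn1-201 spans 133 bases at chrX:20861477-20861609 on the minus strand, and capitals mark the first 38 bases, which Syn1-202 leaves out. Because 38 is no multiple of the codon length, the reading frame after the junction differs, and the coding length is 2118 bases in Syn1-201 and 2010 in Syn1-202, the forms known as synapsin Ia and Ib.
Syn1-201 exon 13 coding part: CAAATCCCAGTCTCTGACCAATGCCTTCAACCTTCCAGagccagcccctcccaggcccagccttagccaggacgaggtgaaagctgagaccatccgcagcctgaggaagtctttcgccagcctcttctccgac
Vamp1 has alternative coding ends. Both forms share 52 coding bases at chr6:125219586-125219637 on the plus strand, in exon 4, which encode most of the membrane anchor. Vamp1-201 then splices to 14 coding bases of exon 5 at chr6:125220050-125220063, whereas Vamp1-203 reads on through 11 more coding bases of exon 4, to chr6:125219648. Capitals mark where the models part.
Vamp1-201 last coding bases: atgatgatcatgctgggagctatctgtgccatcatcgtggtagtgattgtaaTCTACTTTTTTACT
Vamp1-203 last coding bases: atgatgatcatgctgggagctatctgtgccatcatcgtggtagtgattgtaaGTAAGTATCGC

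All 38 genes had a TPM (the deposited level per transcript length, scaled to a fixed total per library) of at least 1 in both pups. That level was reached by 35.5% of all gene rows and by 63.8% of protein-coding genes. The median member had a mean TPM of 53.05, against 17.73 for the 13698 protein-coding genes detected in both pups, and 27 members lay above that median. The members spanned from 5.02 TPM for Unc13b to 704 for Rab3a, with 15 at or above 100 and 2 under 10. Together they summed to 4687 TPM in pup 1 and 4309 in pup 2. On the separate scale of expected counts they drew 0.767% and 0.726% of the total. When the members were ordered by mean TPM, the 2 pups' values of neighbours overlapped in 23 of 37 neighbouring pairs, so much of the order is not resolved by these libraries.

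**Figure D1:**
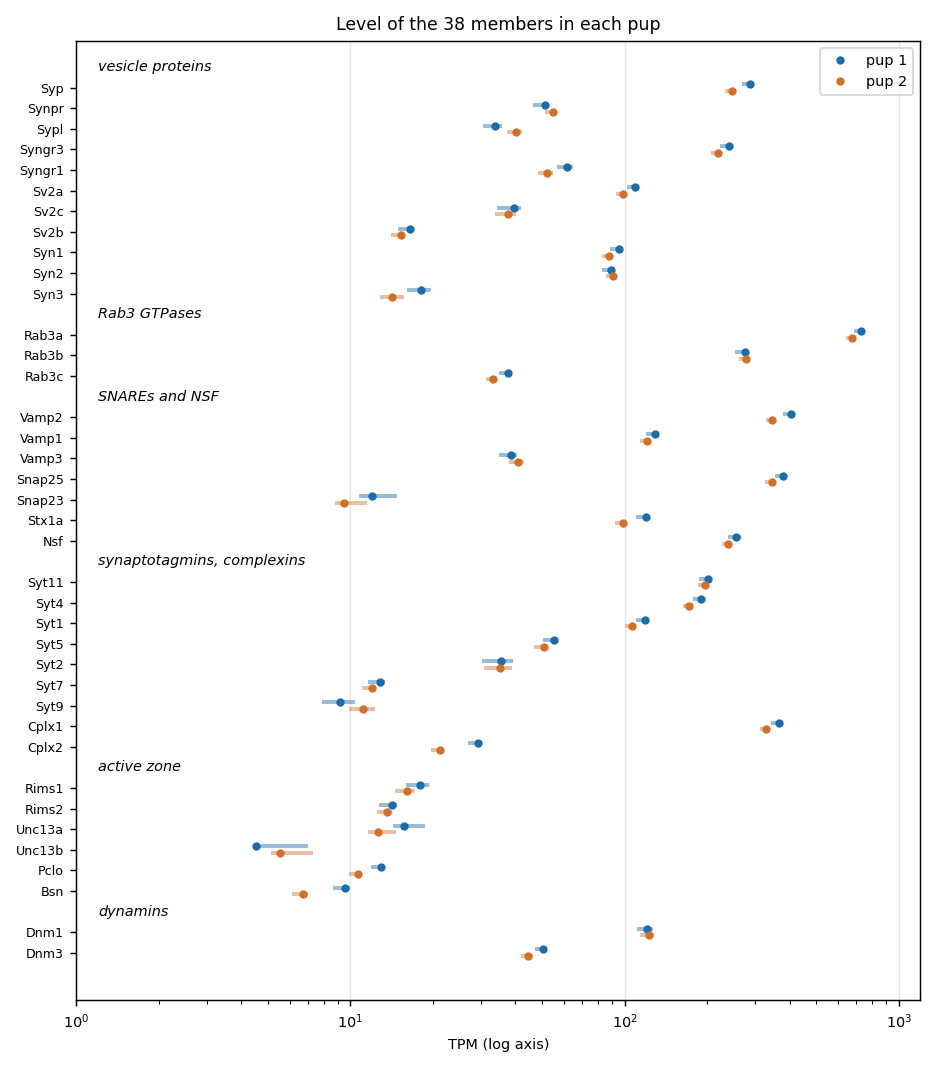
TPM of the 38 genes in pup 1 (blue) and pup 2 (orange), grouped by role on a log axis; bars are the deposited interval bounds, which surround the posterior mean. Rab3a at 731 and 678 TPM stands highest, and the active zone genes lie below 20.

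The neural tube forms the brain and spinal cord, but markers of the forebrain were not detected. All 10 neuron markers and all 6 motor neuron markers were detected, while 0 of 6 forebrain markers reached 1 TPM, with 0.21 and 0.15 TPM over the 6 together and Otx1, Otx2 and Nkx2-1 listed at 0 in both pups. The neuron markers ranged from 46.6 ± 7.50 TPM (SD, n = 2) for Elavl3 to 1171 ± 136 for Gap43. In such bulk tissue, fewer cells of a type and less RNA per cell cannot be told apart.

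Of the listed synaptophysin, synaptogyrin and SV2 genes, which encode membrane proteins of the vesicle, Syp and Syngr3 had the highest TPM. Syp, which encodes synaptophysin, a four-span protein used as the standard label of synaptic vesicles, was at 286 TPM in pup 1 and 246 in pup 2. Its relative Synpr (synaptoporin) was at 51.1 and 54.9, and Sypl, a synaptophysin-like protein found in many cell types, at 33.6 and 40.2. Syp thus held 74.5 ± 3.59% (SD, n = 2) of the TPM of its family, Synpr 14.9 ± 1.64% and Sypl 10.4 ± 1.91%. The Syp share was lower in pup 2, where Syp was lower and both relatives were higher. Sypl2 was below 1 TPM in both. Exons of Syp overlap those of an antisense gene, Gm14703, by 875 bases; that gene was at 2.77 and 1.56 TPM.

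Syngr3 (synaptogyrin-3), another four-span vesicle protein, was at 240 TPM in pup 1 and 219 in pup 2. Syngr1 was at 61.7 and 52.2, so the TPM of Syngr3 was 3.883 times that of Syngr1 in pup 1 and 4.205 times in pup 2. By expected counts the ratios were 2.103 and 2.402. Syngr3 held 75.4 ± 0.44% of synaptogyrin TPM and 66.55% of synaptogyrin counts. Syngr2, the form of non-neuronal cells, was at 17.5 and 18.1 TPM.

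The SV2 proteins are glycosylated vesicle proteins with the fold of sugar transporters, and SV2A is the binding site of the antiepileptic levetiracetam. Sv2a was at 109 TPM in pup 1 and 98.6 in pup 2, Sv2c at 39.4 and 37.5, and Sv2b at 16.5 and 15.3. The order Sv2a, Sv2c, Sv2b held in both pups with no overlap, and Sv2a held 65.6 ± 0.70% of the family. Sv2c exceeded Sv2b 2.42 ± 0.05 times in TPM. By expected counts the gap was 1.36 ± 0.06 times. Sv2c-202, a model that is not protein coding, took 27.6% and 23.9% of Sv2c TPM. On protein-coding transcripts alone Sv2c held 19.3% of the family, against 24.3% over all transcripts.

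Synapsins coat the vesicle surface and tether vesicles in the reserve pool. Syn1 was at 95.5 TPM in pup 1 and 88.0 in pup 2, and Syn2 at 89.5 and 90.5. The pair could not be ordered: Syn1 was higher in pup 1, Syn2 in pup 2, and by expected counts Syn2 led in both (Syn1 to Syn2 ratio 0.87 ± 0.06). Syn3, at 18.0 and 14.2 TPM, was the lowest in both. Its value has a limit of its own, since its exons overlap 1733 bases of Timp3 on the opposite strand. Timp3, an inhibitor of matrix proteases encoded within Syn3, was at 62.9 and 63.1 TPM, and the strand setting of the counting is not given in the sources used here. Syn2 likewise shares 90 exonic bases with Timp4.

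Rab3 proteins are small GTPases that bind vesicles in the GTP form and recruit RIM at the active zone. Rab3a (chr8:70754679-70758677, plus strand) was at 731 TPM in pup 1 and 678 in pup 2, the highest member and 148th among the protein-coding genes by mean TPM. Rab3b was at 274 and 278, Rab3c at 37.5 and 33.1, and Rab3d, which is not a listed member, at 17.1 and 16.2. In shares, Rab3a held 68.2 ± 1.11%, Rab3b 26.8 ± 1.28% and Rab3c 3.42 ± 0.17%. The Rab3c share depends on the scale. Its only transcript in the deposited tables is 8500 bases long against 1363 for the leading Rab3a transcript, and by expected counts Rab3c held 19.0%, near the 19.7% of Rab3b.

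**Figure D2:**
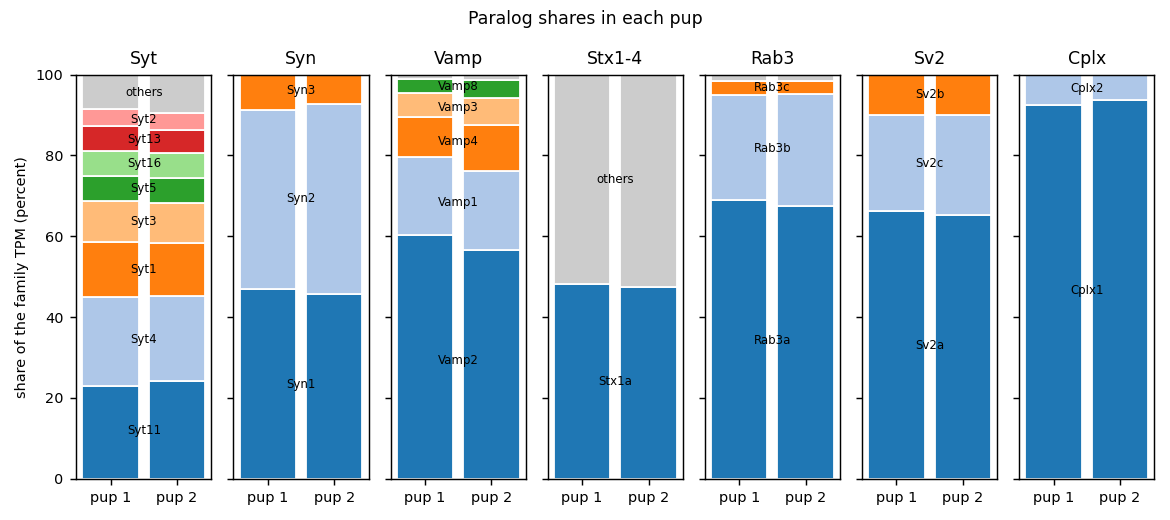
Share of each paralog in the summed TPM of its family, in percent, with 1 bar per pup; the 7 panels are the families named above them, and paralogs under 3% in both pups, and all syntaxins but Stx1a, are pooled in grey. Shares differ little between the pups, and Cplx1 at 92.5 and 93.8% is the most dominant paralog of the 7 families.

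Vamp2 led the vesicle SNAREs in both pups. Vamp2 (chr11:69088490-69092384, plus strand), which encodes synaptobrevin-2, the main vesicle SNARE of fast synapses, was at 406 TPM in pup 1 and 346 in pup 2. Vamp1, the vesicle SNARE of spinal and motor synapses, was at 129 and 121, and Vamp3 (cellubrevin), a broadly expressed form, at 38.5 and 41.0. In TPM Vamp2 exceeded Vamp1 3.001 ± 0.1945 times and Vamp3 9.48 ± 1.47 times. By expected counts these ratios were 2.283 ± 0.1477 and 9.835 ± 1.502. Among 6 family members with a row, Vamp2 held 58.4 ± 2.75% of TPM and Vamp1 19.5 ± 0.35%. Vamp4, a SNARE of the Golgi and endosomes, held 10.7 ± 0.94%, and Vamp7 is not analysed here.

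Snap25, the neuronal membrane SNARE that supplies a pair of helices, was at 378 TPM in pup 1 and 344 in pup 2. Snap23, its counterpart outside neurons, was at 11.95 and 9.46, so Snap25 was 34.01 ± 3.31 times as high. The highest gene of the family was not a listed member: Snap47, a relative that lacks the cysteine-rich membrane anchor, was at 470 and 439 TPM and held 54.1 ± 0.50% of the family against 43.0 ± 0.43% for Snap25.

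Stx1a, one of the neuronal syntaxins of the plasma membrane, was at 120 TPM in pup 1 and 98.8 in pup 2. Stx1a held 47.8 ± 0.57% of the TPM of the plasma membrane syntaxins (Stx1 to Stx4), the leading share on that scale. By expected counts its share was 35.3% and was not the leading one. The plasma membrane forms Stx4a and Stx2 were lower, at 26.9 and 23.0 TPM and at 11.2 and 13.3 TPM. Nsf, the ATPase that separates spent SNARE complexes, was at 256 TPM in pup 1 and 238 in pup 2.

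**Figure D3:**
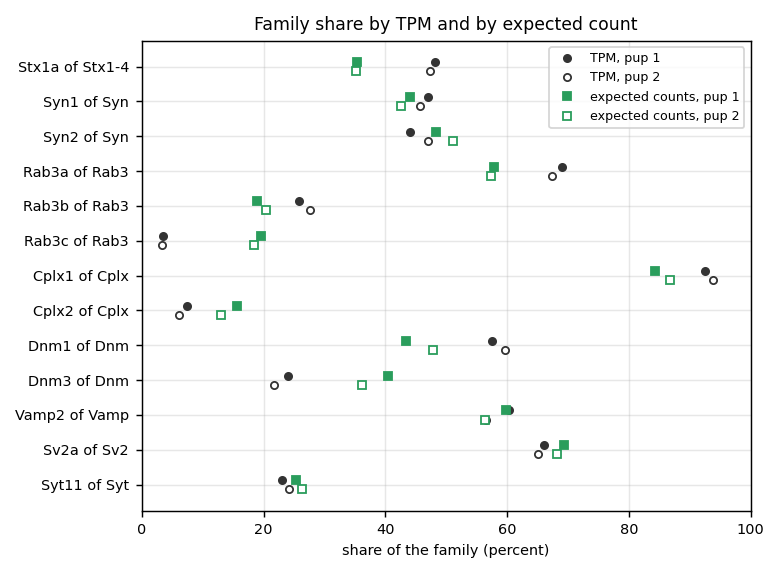
Share of 13 paralogs in their family, in percent, by TPM (circles) and by expected count (squares), with filled marks for pup 1 and open marks for pup 2. Stx1a has a lower share by count than by TPM, Rab3c and Cplx2 gain by count, and Vamp2 keeps its share.

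The most abundant synaptotagmins at birth were Syt11 and Syt4, both of which carry a substitution in a calcium-binding loop of the first C2 domain and do not act as fast calcium triggers. Syt11 was at 201 TPM in pup 1 and 197 in pup 2, and Syt4 at 191 and 172. Syt1, the trigger of fast synchronous release, was at 119 and 107. Syt11 exceeded Syt1 1.77 ± 0.10 times and Syt4 exceeded it 1.609 ± 0.00074 times. These ratios were 1.55 ± 0.08 and 1.43 ± 0.01 by expected counts, so the order held on both scales. Of the 17 synaptotagmins, Syt11 held 23.6 ± 0.76% of TPM, Syt4 21.5 ± 0.55% and Syt1 13.3 ± 0.35%.

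Syt2, the fast trigger of brainstem, spinal and neuromuscular synapses, was at 35.3 TPM in pup 1 and 35.1 in pup 2. Syt1 stood 3.36 times above Syt2 in pup 1 and 3.05 times in pup 2, and 3.7 times in both by expected counts. A model of only 383 bases took 15.2 and 17.3 TPM of the Syt2 level. Syt5 was at 55.5 and 50.7 TPM. Syt7, a slow high-affinity sensor, was at 12.84 and 11.96, and Syt9 at 9.13 and 11.1. Of the paralogs outside the list, Syt3 was at 88.9 and 81.6 TPM, and Syt16 and Syt13 held 6.16 ± 0.01% and 5.90 ± 0.47% of the family against 6.28 ± 0.10% for Syt5. By expected counts Syt16 and Syt13 held 4.70% and 6.32% and Syt5 3.03%, and Syt16 held 0% on protein-coding transcripts.

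Complexins bind the assembled SNARE bundle, hold it before fusion and promote release on the calcium signal. Cplx1 (chr5:108518554-108550024, minus strand) was at 367 TPM in pup 1 and 328 in pup 2, while Cplx2 was at 29.3 and 21.2. Cplx1 held 93.1 ± 0.90% of complexin TPM and exceeded Cplx2 14.0 ± 2.08 times. The ratio was 6.05 ± 0.90 by expected counts, the single Cplx2 transcript of the deposited tables being 4928 bases long against 2189 for the leading Cplx1 transcript. Cplx3 and Cplx4, the complexins of retinal ribbon synapses, were below 1 TPM in both pups.

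The scaffolds and priming factors of the active zone were the lowest group per transcript length. Rims1 and Rims2 encode RIM proteins, which link Rab3, calcium channels and Munc13. Rims1 was at 18.0 TPM in pup 1 and 16.1 in pup 2, and Rims2 at 14.1 and 13.6. Rims3, a short form that is not a listed member, was the highest of its family at 22.7 and 19.5, and Rims4 was at 15.1 and 13.9. Unc13a (Munc13-1, the main priming factor) was at 15.7 and 12.6, and Unc13b (Munc13-2) at 4.53 and 5.51. The TPM ratio of Unc13a to Unc13b moved from 3.46 in pup 1 to 2.29 in pup 2, the widest relative spread of the named paralog ratios. By expected counts the ratio was higher, at 6.32 and 4.64. Transcripts that are not protein coding took 46.3% and 44.8% of Unc13b TPM. Unc13c, outside the list, lay between Unc13a and Unc13b at 8.31 and 8.17 TPM. The giant scaffolds Pclo (piccolo) and Bsn (bassoon) were at 12.96 and 10.65 and at 9.58 and 6.71 TPM. Their long transcripts still drew 3335 and 4442 expected counts for Pclo and 1587 and 1798 for Bsn. On protein-coding transcripts alone Bsn held 61.1 ± 2.79% of their summed TPM, against 40.6 ± 2.72% over all transcripts. That scale leaves out the leading Pclo transcript, which is annotated as retained intron. Exons of Unc13a share 495 bases with Colgalt1 on the opposite strand, a gene at 51.7 and 42.6 TPM.

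Dnm1, the neuronal dynamin that severs endocytic vesicles, was at 121 TPM in pup 1 and 123 in pup 2. Dnm3 was at 50.4 and 44.4, and Dnm2, the form of all tissues, at 39.1 and 38.3. Dnm1 held 58.6 ± 1.58% of dynamin TPM. By expected counts Dnm1 and Dnm3 lay closer, at 45.6% and 38.3%.

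The other genes of the pathway were detected almost throughout. All 14 SNARE partners and priming factors, all 14 active zone and calcium channel genes, all 20 endocytosis genes and all 11 genes of a list of Rab3 regulators and related proteins reached 1 TPM in both pups, as did 12 of 15 vesicle transporters and proton pump genes. Among SNARE partners, Napa was at 224 TPM in pup 1 and 190 in pup 2, and Tprgl at 203 and 196. Doc2b was the lowest, at 4.49 and 3.85. Of the active zone genes Cask led at 50.4 and 55.0, with Erc1 at 44.7 and 42.9 and Ppfia3 (liprin-alpha-3) at 33.3 and 31.4. Rimbp2 was the lowest, at 2.95 and 2.15. Cask, Erc1 and Ppfia3 were taken as the 3 highest of those 14 genes. They lay above Rims1, Rims2, Pclo and Bsn in both pups, whereas Rimbp2 lay below all 4.

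The endocytosis list was led by the uncoating chaperone gene Hspa8, at 1943 TPM in pup 1 and 1873 in pup 2, and the clathrin adaptor genes Ap2m1 and Ap2s1, at 714 and 642 and at 475 and 420. Picalm was the lowest, at 16.6 and 13.5. The proton pump gene Atp6v0c reached 2097 and 2041 TPM, Atp6v1e1 308 and 311, and Atp6v1b2 239 and 236. The lowest of that list by mean TPM, Slc17a9, a nucleotide transporter, was at 0.25 in both. Of the list of Rab3 regulators, Rabac1 was at 443 and 463 TPM, and Rab3gap1 was lowest at 14.4 and 15.3. Hspa8 and Atp6v0c stood above every listed member in both pups.

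The transcript tables divide each gene's TPM among its annotated transcripts, in percent. Of 34 members with several transcripts, 33 had the same leading transcript in both pups, or all but Dnm3, where Dnm3-202 took 46.8% in pup 1 and 41.4% in pup 2 and Dnm3-201 40.95% and 44.93%. Over all such genes 89.9% kept their leader. The leading transcript was not protein coding for 1 of 34 members, Pclo, against 9.62% of all protein-coding genes. Transcripts that are not protein coding took a median 0.64% of TPM over these members and 6.67% over 10073 protein-coding genes. The leader took a median 73.35% and 68.53%. The share that is not protein coding varied widely. As a mean of the pups it was highest in Pclo (56.65%), Unc13b (45.56%), Syt9 (37.39%), Dnm1 (34.62%) and Syn3 (34.38%). At least 90% of TPM fell on 1 transcript in 8 members, and under 50% in 4.

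**Figure D4:**
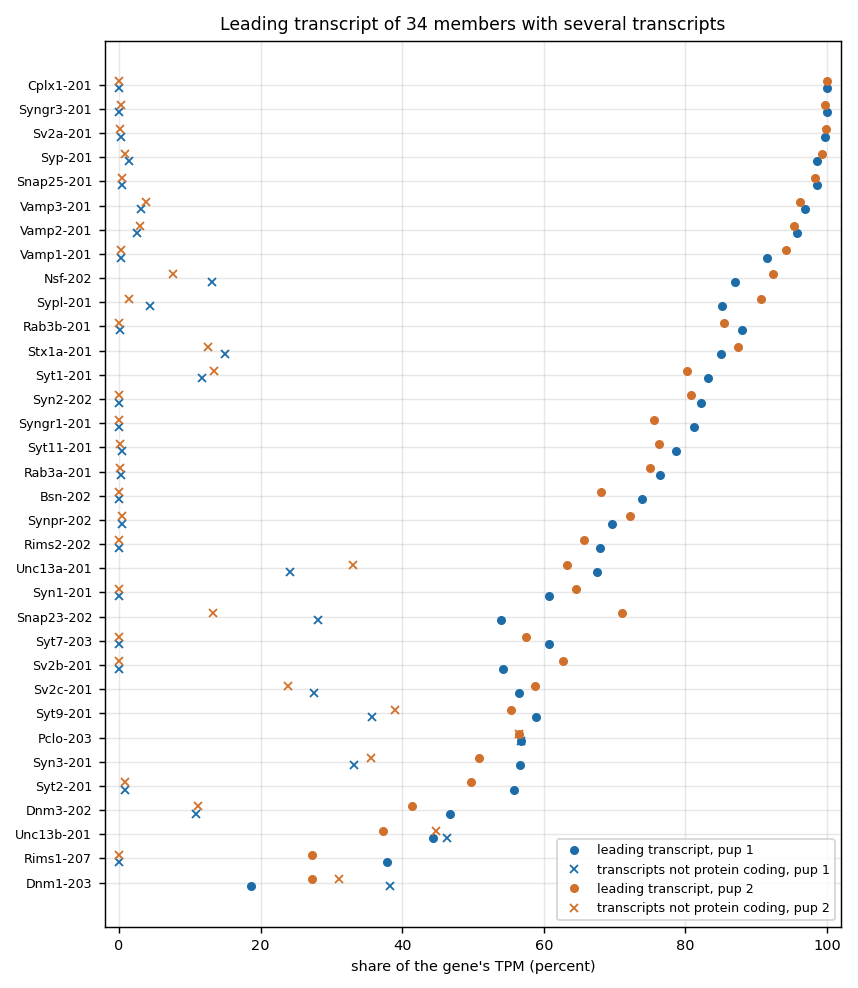
Percent of the gene's TPM in its leading transcript (circles) and in transcripts that are not protein coding (crosses), for 34 members in pup 1 (blue) and pup 2 (orange). Cplx1, Syngr3, Sv2a, Syp and Snap25 rest on 1 transcript, whereas Dnm1 and Rims1 are spread, and Pclo's leader is itself a retained-intron model.

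Snap25-201, which carries the second of the exons printed above, held 98.6% of Snap25 TPM in pup 1 and 98.3% in pup 2. Snap25-202, with the first, held 0.99% and 1.25%, from 59.2 and 105 expected counts. This share is not a count of exon 5 reads. The models share 896 bases, but Snap25-201 has 1220 bases of its own against 118 for Snap25-202, so reads over the rest of its length can go to it alone; reads per exon were not analysed here.

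The Syn1 forms are nearly equal in length and share 3171 bases. Only 38 bases are in Syn1-201 alone and 90 in Syn1-202 alone. The split between them therefore rests largely on how the authors' estimation divided reads that fit both. Syn1-201, with the 38 bases in capitals, held 60.7% in pup 1 and 64.5% in pup 2. Syn1-202 held 39.3% and 35.5%, from 2046 and 2622 expected counts. Syn2-202 led Syn2 with 82.1% and 80.8%. Vamp1-201 held 91.6% and 94.2% of Vamp1 TPM, and Vamp1-203, whose coding end is 11 bases past the shared part, 8.19% and 5.45%. The second form was lower in pup 2 for both Syn1 and Vamp1.

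Rab3a-201 led Rab3a with 76.4% and 75.0%, and Rab3a-204 followed with 18.6% and 21.3%. Syp-201 held 98.6% and 99.2% of Syp, Vamp2-201 95.8% and 95.3% of Vamp2, and Sv2a-201 99.7% and 99.8% of Sv2a. These vesicle genes therefore rest on 1 or 2 annotated forms each. Stx1a-201 held 85.03% and 87.37%, with 8.03% and 8.07% on Stx1a-204, a nonsense-mediated decay model. Syt11-201 held 78.7% and 76.3% and Syt1-201 83.1% and 80.2%. Syt4, Syt5, Rab3c and Cplx2 had a single transcript in the deposited tables.

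Some transcript shares rest on short or long models and few reads. Syt2-203, a model of only 383 bases, took 43.2% and 49.3% of Syt2 TPM from 74.7 and 131 expected counts, while Syt2-201, with 6879 bases, drew 2304 and 3136. Bsn-202, of 7496 bases, held 73.9% and 68.1% of Bsn TPM, but all of its bases lie within Bsn-201, whose 15938 bases drew 684 counts in pup 1 and 900 in pup 2 against 903 and 898 for Bsn-202. The Bsn leader by count was therefore Bsn-202 in pup 1 and Bsn-201 in pup 2. For Pclo the retained-intron model Pclo-203 held 56.8% and 56.5%, and the coding Pclo-202 23.99% and 31.94%. Pclo-203 is no short fragment, with 17057 bases against 16846 for Pclo-202. An antisense gene that overlaps Pclo by 429 bases, Gm26918, was at 15.4 and 19.2 TPM, above Pclo itself.

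Dnm1 was the most divided member. Dnm1-203 led it with only 18.7% in pup 1 and 27.3% in pup 2, and transcripts that are not protein coding took 38.2% and 31.0%. Rims1-207, a model of 2294 bases, led Rims1 with 37.9% and 27.2%, whereas by expected count a longer model led, Rims1-201 in pup 1 (377 counts) and Rims1-206 in pup 2 (548 counts). For Unc13a the coding Unc13a-201 held 67.5% and 63.3%, and the retained-intron model Unc13a-206 9.08% and 20.4% from 20.7 and 57.8 counts. For Snap23 the coding Snap23-202 held 53.9% and 71.0%, and the nonsense-mediated decay model Snap23-208 21.9% and 4.26%. The leading share had its widest spread between the pups in Snap23 (SD 12.1 percentage points), Rims1 (7.52) and Dnm1 (6.07).

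Between the pups, 0 of 38 members differed by 2-fold or more on the log2 ratio of library-scaled counts (CPM, pup 2 over pup 1), against 0.473% of the 13544 genes whose mean count was at least 100. The ratio was below 0, meaning lower in pup 2, for 26 members and above 0 for 12; over all those genes 49.7% were below 0. The median member ratio was -0.06 on the log2 scale, and the range ran from -0.40 for Cplx2 to 0.33 for Syt9. Bsn (-0.37), Unc13a (-0.34), Syn3 (-0.30) and Syngr1 (-0.25) followed Cplx2, and Sypl (0.30) followed Syt9. Scaling to the spike-in totals of 335 and 603 counts moved all ratios by -0.29 and put 36 of 38 members, and 12674 of the 13544 genes, below 0.

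The deposited interval bounds of TPM, which cover the estimation from 1 library only, did not overlap between the pups for 21 members. Of these, 20 were lower in pup 2 and 1, Sypl, was higher. The bounds are on TPM, without the scaling between libraries that the CPM ratios used. By TPM 30 members were lower in pup 2, against 26 by the CPM ratio. Rab3a and Vamp1, with log2 ratios of CPM of -0.04 and -0.03, were among those apart. Among all genes whose mean count reached 100, 15.9% were apart and lower in pup 2, and 7.72% apart and higher. Deeper counts narrow the intervals, and at a mean count of at least 1000 the shares were 19 of 34 members and 23.3% of all genes. The level of these intervals is not given in the sources used here, and the deposited TPM lay above its own upper bound for 15 members in pup 1 and 9 in pup 2, whereas the posterior mean lay inside for all 38.

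**Figure D5:**
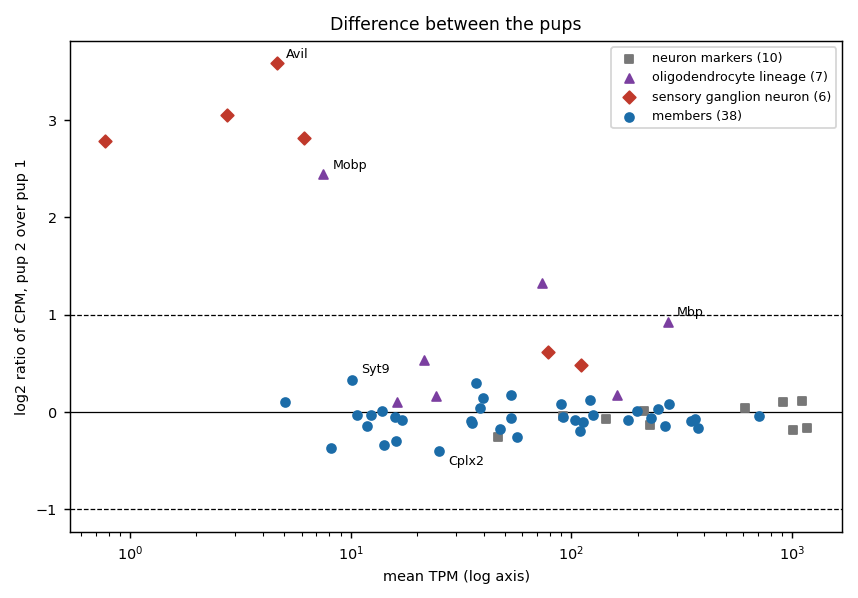
Log2 ratio of CPM, pup 2 over pup 1, against mean TPM on a log axis, for the 38 members and for markers of neurons, oligodendrocyte lineage and sensory ganglion neurons with a mean count of at least 100; dashed lines mark 2-fold. Members and neuron markers lie between the lines, while Avil and Mobp are among the markers above.

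Markers of 2 other cell types moved between the pups. The neuron markers had a median log2 ratio of -0.06, with 6 of 10 below 0, and a summed TPM of 5731 in pup 1 and 5332 in pup 2. For sensory ganglion neurons 7 of 8 listed markers had a row, and all 6 with a mean count of at least 100 were higher in pup 2. The summed TPM of the 7 was 162 and 245. Most of it came from Prph (94.8 and 126) and Calca (63.5 and 92.5). Avil went from 0.70 TPM to 8.55, P2rx3 from 0.58 to 4.95 and Scn10a from 0.19 to 1.35. Of the oligodendrocyte lineage, all 7 of 8 markers at that count were higher in pup 2, with a summed TPM of 442 and 713 and Mobp at 2.27 and 12.8. The part of these cells in the members' differences was not tested. The other lists moved less, with median log2 ratios of 0.19 for motor neurons, -0.02 for astrocytes and radial glia, 0.03 for microglia and -0.14 for endothelium. Of the skeletal muscle markers 5 of 6 were detected, with a summed TPM of 59.5 in pup 1 and 59.2 in pup 2, from Acta1 at 34.3 and 34.2 to Myog at 0 and 0.03.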

How the data were processed

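Total RNA-seq of 2 neural tubes was analysed as 1 group (n = 2); the spread is that between pups of the same pregnancy, library preparation included. Per the labels' protocols, RNA above 200 bases was used with spike-ins. The authors deposited expected counts, which need not be whole, TPM, interval bounds of TPM (treated as a score, since they have no fixed sum) and, for transcripts, the percent of the gene's TPM; per the file headers the columns are those RSEM writes. The deposited notes name mm10 and GENCODE M4. Which aligner, version and strand setting served is not given in the sources used here. Reads that fit several genes or transcripts were split by the authors' estimation, so transcript shares and overlapped genes are less certain than gene levels.

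Symbols, coordinates and transcript models came from GENCODE M21 on GRCm38, which held 182 of 183 member transcripts; transcript numbers, lengths and shares are those of the deposited tables, and coding lengths and sequences those of M21. Family shares used the summed TPM of all listed paralogs in each pup. Expected counts were rounded and scaled with edgeR 4.0.16 TMM factors in R 4.3.3 over genes whose mean count was at least 10; log2 ratios used a prior count of 2, and 2-fold was counted at a mean count of at least 100. DESeq2 1.42.0 size factors, TPM ratios and spike-in totals were alternatives. A gene at 0 counts allows up to 3 counts, or 0.111 CPM in pup 1 and 0.075 in pup 2, for counting error only. The scaling was tested on simulated data. Other steps used Python 3.11.15, pandas 2.3.3, numpy 2.4.6 and matplotlib 3.10.9. The members, gene lists, families and alternatives were chosen with earlier results of these data known. Named genes are all members, paralogs with at least 5% of their family, the 3 highest and the lowest of each pathway list, and the highest and lowest markers with any past 2-fold (a few genes that this rule takes are not reported here); further ones were named after their values were seen.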

Additional observations from a re-analysis of the deposited data

How the results depend on the processing

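Of 63 alternative values, 50 kept their side or stayed within the spread between the pups. Some of these could not have moved. With 2 pups, each pup's share or sum always lies within the SD around the mean, and every member was detected in both pups. For Syn and Sv2 the listed members are the whole family. The share of the paralog that led by TPM moved on expected counts to 25.8% (Syt11), 43.3% (Syn1), 35.3% (Stx1a), 57.7% (Rab3a), 68.8% (Sv2a) and 85.6% (Cplx1). Syn1 and Stx1a no longer led their families on that scale. On TPM of protein-coding transcripts the share moved to 25.9% (Syt11), 47.7% (Syn1) and 70.0% (Sv2a). Among listed members alone it was 33.0% (Syt11), 69.4% (Vamp2) and 69.3% (Rab3a). The members summed to 4839 TPM without mitochondrial rows, against 4498. With 1 library on either side, no value here separates pup from library. No paired analysis was possible because there is only 1 group.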
